A study of Homo sapiens with 12 samples.

Results

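The integrins, laminins and basement membrane genes are 36 genes, taken by symbol from the 32269 Ensembl identifiers of the count table. They comprise 10 integrin alpha subunit genes, 7 integrin beta subunit genes, 9 laminin chain genes, 4 collagen IV chain genes, 4 genes of nidogens and heparan sulphate proteoglycans, and the receptor genes DAG1 and CD151. All 36 were found, and 35 passed the filter on low counts together with 20280 genes in all. The gene left out was ITGA4, which held 0 counts over the treated and 6 over the untreated MKN1 libraries, and 0 over the treated and 3 over the untreated AGS libraries.

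RNA was sequenced from 2 human gastric cancer lines, both with genotype WT in the labels, in 4 groups of 3 libraries. The groups were MKN1 cells (labelled gastric adenosquamous carcinoma) treated with cantharidin sodium, untreated MKN1 cells, AGS cells (labelled gastric adenocarcinoma epithelial cell) treated with cantharidin sodium, and untreated AGS cells. Cantharidin is a blister beetle toxin known as an inhibitor of serine/threonine protein phosphatases, and the labels state neither its dose nor how long it was applied. The replicates of a group are libraries of 1 line, so their spread is that of cultures and library preparation, and a comparison of AGS with MKN1 compares these lines and not tumour types.

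The basement membrane is the sheet of matrix on which epithelial cells sit. Laminins are trimers of an alpha, a beta and a gamma chain, they assemble beside a network of collagen IV, and nidogens and the proteoglycans perlecan and agrin tie the networks together. Integrins are receptors made of an alpha and a beta subunit. Those with the alpha subunits encoded by ITGA3, ITGA6 and ITGA7 bind laminins, those of ITGA1, ITGA2, ITGA10 and ITGA11 bind collagens, and those of ITGA5 and ITGAV bind fibronectin and other ligands with an RGD motif. In gastric and other epithelia the pair of ITGA6 and ITGB4 anchors cells through hemidesmosomes.

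Libraries held 28604966 to 51604215 counts. Pearson correlations of log2 CPM between replicates were 0.9736 to 0.9866, except for untreated MKN1 replicate 3, which reached 0.9655 and 0.9677 with the other 2 libraries of its group. Of 8 epithelial marker genes, 8 averaged at least 1 CPM (read counts per 1000000 of a library's TMM-scaled total) in each group. Of 10 squamous marker genes, 10 did so in MKN1 and 2 in AGS, with summed levels of 2604.5 to 3600 CPM in treated and 1948 to 4096 CPM in untreated MKN1 libraries, and of 93.2 to 110.5 CPM in treated and 163 to 202 CPM in untreated AGS libraries. Markers of cells that make much basement membrane, endothelial cells and fibroblasts, summed to at most 156.9 CPM in any library. Endothelial markers summed to 21.2 to 33.2 CPM in MKN1 and 11.1 to 17.3 CPM in AGS libraries, with CDH5 at a mean of at most 0.0226 CPM in any group. Of 8 endothelial genes counted, 4 averaged at least 1 CPM in treated and 4 in untreated MKN1, against 1 in treated and 2 in untreated AGS. Of 5 tested, 3 were higher and 1 lower in untreated MKN1 than in untreated AGS, or 80.0%, beside 66.3% of all genes. Fibroblast markers summed to 61.1 to 156.9 CPM in MKN1, of which LUM averaged 66.6 CPM in treated and 104.2 CPM in untreated cells, and to 61.4 to 82.7 CPM in AGS, where COL1A1 averaged 12.1 CPM in treated and 21.7 CPM in untreated cells. Blood cell markers summed to 41.4 to 53.3 CPM in MKN1 and 1024 to 1597 CPM in AGS, where LYZ, the lysozyme gene, averaged 1293.5 CPM in treated and 1256 CPM in untreated cells while PTPRC, the pan-leukocyte marker gene, averaged 0 CPM in treated and 0.275 CPM in untreated AGS cells.

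RNA levels of different receptor and matrix genes were set beside each other per length of exon, in CPM per kb. The length was the union of all annotated exons of a gene, which can exceed that of the transcript expressed. The order of genes is therefore approximate, and protein was not measured. Untreated MKN1 cells had ITGA3 first among integrin alpha genes, at 150.4 ± 17.6 CPM per kb or 51.4% of the summed alpha level, ahead of ITGA6 at 48.5 ± 8.63 (mean ± SD, n = 3). Untreated AGS cells had ITGA6 first at 89.3 ± 5.6 CPM per kb or 49.5%, ahead of ITGA2 at 43.9 ± 5.46 and ITGAV at 16.8 ± 2.28, with ITGA3 at 14.7 ± 2.03. In AGS, ITGAV lay within its own spread of ITGA3, and ITGA3 within its own spread of ITGA5 at 13.7 ± 0.232. ITGAV was above ITGA5 by more than either SD. Within their spread of each other in MKN1 were ITGA5 at 37 ± 2.6 and ITGAV at 34.9 ± 6.74.

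Among beta genes ITGB1, the common partner of most alpha subunits, stood first in every group, with 95.2 ± 17.2 CPM per kb in untreated MKN1 cells and 117 ± 8.92 in untreated AGS cells. It made up 72.2% of the summed beta level in untreated MKN1 and 66.1% in untreated AGS cells. ITGB4 came next at 14.1 ± 3.8 CPM per kb in MKN1, within its spread of ITGB5 at 10.8 ± 1.59, and at 28.6 ± 2.26 in AGS, again within its spread of ITGB5 at 26.5 ± 3.88. In each line the ITGB4 level was below that of ITGA6, its sole known alpha partner, which can also pair with ITGB1.

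The laminin genes with the highest levels per length were LAMC1 at 94.9 ± 19.2 CPM per kb in untreated MKN1 and 58.5 ± 3.08 in untreated AGS cells, and LAMB3 at 83.3 ± 16.2 in untreated MKN1 and 50.9 ± 3.24 in untreated AGS cells. LAMB3 encodes the beta chain of the laminin of anchoring filaments, whose alpha chain comes from LAMA3. The third in AGS was LAMB1 at 42.1 ± 2.05 CPM per kb, against 11.9 ± 3.66 in MKN1, where it was the sixth. LAMA3 was the laminin alpha gene with the highest mean in both lines, at 27.5 ± 12.6 CPM per kb in MKN1 and 11.6 ± 1.32 in AGS, and in MKN1 it lay within its spread of LAMA5 at 25 ± 3.18. Among collagen IV genes COL4A5 was first in both lines, at 1.45 ± 0.0679 CPM per kb in MKN1 and 6.18 ± 0.303 in AGS, and AGRN, the agrin gene, led its group with 92.2% of the summed nidogen and proteoglycan level in MKN1 and 54.2% in AGS.

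**Figure D1:**
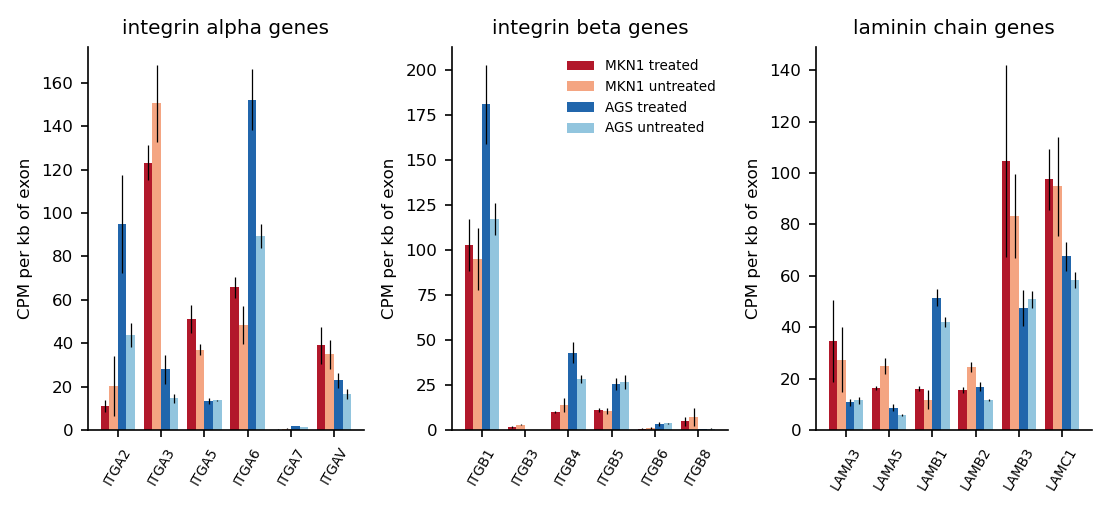
Mean level per length of exon (CPM per kb, linear axis from 0) of the integrin and laminin genes that reached 1 CPM per kb in at least 1 group, with SD over 3 libraries as error bars. In untreated cells ITGA3 led the alpha genes in MKN1 at 150.4 ± 17.6 and ITGA6 led them in AGS at 89.3 ± 5.6, while ITGB1 was the highest beta gene in all 4 groups.

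The comparison of untreated MKN1 with untreated AGS cells asked how the repertoires of the lines differ at baseline. Of 35 members tested, 17 were higher and 12 lower in MKN1 with an adjusted p below 0.05, or 82.9%, where 66.3% of all tested genes passed (34.9% higher and 31.4% lower). The median log2 fold change of the members was 0.58, against 0.04 over all genes. Libraries of the lines did not overlap for 29 of the 35 members, beside 71.4% of all tested genes. The 6 members that did not pass were ITGB1, ITGB7, LAMA2, COL4A2, HSPG2 and DAG1.

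Among laminin-binding receptors, ITGA3 (chromosome 17, 50055968 to 50090481 in GRCh38) had 1301, 1477.5 and 1646 CPM in the untreated MKN1 libraries, against 121, 153 and 158 CPM in the untreated AGS libraries. Every MKN1 library was far above every AGS library, a 10.3-fold higher level (log2 fold change 3.36, SE 0.18, adjusted p = 3.07e-09). ITGA6 had 375, 313 and 262.5 CPM in MKN1 and 568, 625 and 557 CPM in AGS (log2 fold change −0.88, SE 0.13, adjusted p = 5.74e-05). Its partner gene ITGB4 had 72.5, 90.1 and 123 CPM in MKN1 and 176, 198 and 206 CPM in AGS (log2 fold change −1.02, SE 0.17, adjusted p = 0.000123). For both genes every MKN1 library was below every AGS library, so that the receptor pair of hemidesmosomes was lower in the line with the squamous markers. ITGA7, a laminin receptor gene known from muscle, was low in both lines, with 4.99, 4.74 and 5.12 CPM in MKN1 and 7.89, 9.76 and 9.67 CPM in AGS (log2 fold change −0.88, SE 0.18, adjusted p = 0.000857). CD151, a tetraspanin that associates with laminin-binding integrins, was higher in MKN1 by 0.58 (SE 0.15, adjusted p = 0.00337).

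Collagen receptor genes differed in opposite directions. ITGA1 had 16.2, 13 and 17.1 CPM in MKN1 and 3.15, 4.45 and 3.75 CPM in AGS libraries (log2 fold change 2.03, SE 0.18, adjusted p = 5.41e-07), with no overlap. ITGA2 had 260.0, 178.5 and 43.8 CPM in MKN1 and 313, 396 and 332 CPM in AGS libraries (log2 fold change −1.11, SE 0.44, adjusted p = 0.0395), so that its MKN1 libraries spread widely and replicate 3 stood apart. Without that library the ITGA2 difference was −0.66 (adjusted p = 0.0296). The call ended without any 1 of the 3 untreated AGS libraries, MKN1 untreated replicate 2 or MKN1 treated replicate 2 (0.0513 to 0.097). DESeq2 (0.0646), upper-quartile factors (0.0508) and a fit of the untreated groups alone (0.103) also ended this ITGA2 call. So did keeping every gene unfiltered (0.0524) and the stricter 5 CPM cutoff (0.0523). Adjusted p was 0.00743 to 0.103 over all alternatives. ITGA10 (log2 fold change −2.34) and ITGA11 (2.02) also passed, with at most 2.03 CPM and 0.583 CPM in any untreated library. The ITGA11 call ended without AGS untreated replicates 2 or 3 or MKN1 untreated replicates 1 or 2 (0.0567 to 0.108).

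Genes of RGD-binding integrins split as well. ITGB3, the beta subunit gene of the vitronectin receptor, had 13.3, 13.3 and 14.6 CPM in MKN1 and 2 counts over the 3 AGS libraries, a ratio of 862 with a 95% counting interval of 238 to 7123. Of its exon bases, 51.6% lie in a second annotated gene on the same strand, so its count depends on how shared reads were assigned. ITGB8, whose integrin activates TGF-beta, had 171, 138 and 23.3 CPM in MKN1 and 13.8, 17.1 and 12.6 CPM in AGS (log2 fold change 2.93, SE 0.57, adjusted p = 0.000478). All MKN1 libraries were above all AGS libraries, although MKN1 replicate 3 was close to them. ITGA5, the fibronectin receptor alpha gene, was higher by 1.44 (SE 0.12) and ITGAV by 1.06 (SE 0.19). In the other direction ITGB6 had 4.07, 3.72 and 8.85 CPM in MKN1 and 15.4, 19.4 and 18.8 CPM in AGS (log2 fold change −1.68, SE 0.34, adjusted p = 0.000667), and ITGB5 had 59.2, 69.5 and 79.6 CPM in MKN1 and 145, 171 and 195 CPM in AGS (log2 fold change −1.30, SE 0.15, adjusted p = 5.43e-06). Both were lower in every MKN1 library. The ITGB7 values, 0 to 0.771 CPM in all untreated libraries, overlapped.

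Of 9 laminin chain genes, 7 were higher in MKN1 and 1 lower, or 88.9%, beside the 66.3% of all genes. LAMA4, an alpha chain gene known from vessel walls, had 10.5, 9.44 and 8.67 CPM in MKN1 and 2 counts over the 3 AGS libraries, a ratio of 592.5 with a 95% counting interval of 163.5 to 4901. LAMA5, the alpha chain gene of mature epithelial basement membranes, had 310.1, 362 and 401 CPM in MKN1 and 77.9, 84 and 87.4 CPM in AGS (log2 fold change 2.11, SE 0.13, adjusted p = 1.38e-08), with no overlap. LAMB1 went the other way, with 84.6, 74.9 and 131 CPM in MKN1 and 339.5, 361 and 328 CPM in AGS (log2 fold change −1.83, SE 0.17, adjusted p = 7.06e-07). Every MKN1 library held less LAMB1 and more LAMB2, the alternative beta chain gene, than any AGS library. The others passed with 2.80 for LAMA1, 1.25 for LAMA3, 1.09 for LAMB2, 0.71 for LAMB3 and 0.70 for LAMC1, and LAMA1 stayed at or below 5.7 CPM. LAMA3 had 551.6, 461.7 and 195.6 CPM in MKN1 and 162.2, 192.1 and 155.6 CPM in AGS, so that MKN1 replicate 3 was close to the AGS libraries. Its log2 fold change was 0.95 to 1.58 over libraries left out.

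Genes that link or brace the network differed in both directions. NID1, the nidogen 1 gene, had 0.577, 0.474 and 0.306 CPM in MKN1 and 37.8, 47.4 and 42.4 CPM in AGS libraries (log2 fold change −6.56, SE 0.35, adjusted p = 2.98e-09), a 94.1-fold lower level in MKN1. AGRN had 789, 909.7 and 873 CPM in MKN1 and 174, 185 and 198 CPM in AGS (log2 fold change 2.21, SE 0.11, adjusted p = 1.65e-09), all above the AGS libraries. HSPG2, the perlecan gene, overlapped between the lines (log2 fold change −0.14, SE 0.15, adjusted p = 0.444). COL4A5 had 18.1, 17.1 and 16.5 CPM in MKN1 and 73.6, 76.7 and 69.5 CPM in AGS (log2 fold change −2.09, SE 0.12, adjusted p = 5.75e-09), without overlap. COL4A1 had 7.16, 7.36 and 18 CPM in MKN1 and 1.28, 3.37 and 3.64 CPM in AGS (log2 fold change 1.98, SE 0.58, adjusted p = 0.00902), with MKN1 replicate 3 well above the rest. NID2 (−2.15) and COL4A6 (−0.63) were lower, with at most 0.744 CPM and 4.74 CPM in any untreated library. Of the exon bases of NID2, 30.0% are shared with RTRAF on the other strand, so its few counts depend on how shared reads were assigned. The COL4A6 call ended without AGS untreated replicate 1 (0.057), and the NID2 call without AGS untreated replicate 3 (0.0744) or MKN1 untreated replicate 3 (0.0543).

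**Figure D2:**
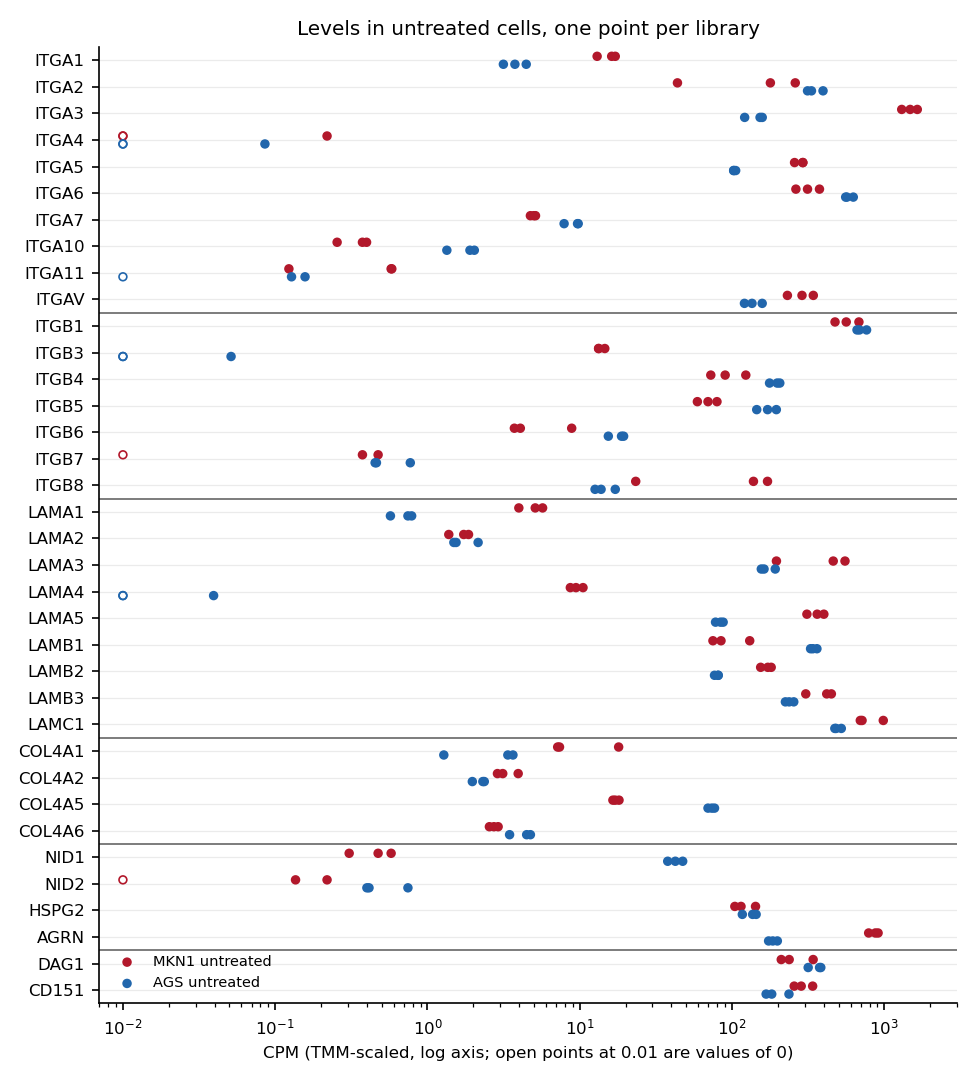
Level of each of the 36 members (CPM, log axis) in every untreated MKN1 library (red) and untreated AGS library (blue), with values of 0 drawn as open points at the left edge and lines between the classes of genes. Most members separate by line: NID1 is lower and ITGA3, AGRN, ITGB3 and LAMA4 are higher in all MKN1 libraries, while the libraries overlap for HSPG2 and ITGB1.

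The start sites of COL4A1 and COL4A2, which encode the chains of the common collagen IV network, lie head to head 127 bases apart in the RefSeq promoter table of GRCh38.p14, and those of COL4A6 and COL4A5 lie 380 bases apart. The window from 250 bases before to 50 after the start of COL4A2, which also holds the start of COL4A1 on the other strand, is shown because both genes start in it and yet varied differently between libraries. Capitals mark a GC box (GGGCGG on either strand), and no AP-1 motif (TGANTCA) or TEAD motif (GGAATG) was in the window.

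COL4A2 (chr13:110307034-110307333, plus strand): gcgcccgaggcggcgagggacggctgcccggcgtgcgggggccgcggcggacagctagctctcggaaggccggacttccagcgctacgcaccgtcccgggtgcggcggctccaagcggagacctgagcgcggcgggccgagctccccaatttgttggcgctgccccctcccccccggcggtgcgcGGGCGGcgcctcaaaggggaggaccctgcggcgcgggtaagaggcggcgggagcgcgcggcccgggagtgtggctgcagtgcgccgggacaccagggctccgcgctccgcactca

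On the scale of CPM, COL4A1 had 2.43, 5.74 and 3.96 in treated MKN1, 7.16, 7.36 and 18 in untreated MKN1, 2.95, 14.2 and 5.51 in treated AGS and 1.28, 3.37 and 3.64 in untreated AGS libraries. COL4A2 had 3.64, 3.25 and 5.35 in treated MKN1, 3.12, 3.94 and 2.88 in untreated MKN1, 1.79, 2.19 and 1.51 in treated AGS and 1.97, 2.31 and 2.36 in untreated AGS libraries. COL4A1 was more variable between replicates, with single high libraries in untreated MKN1 (replicate 3) and treated AGS (replicate 2). For COL4A2 the first of these libraries was the lowest of its group and the second was the highest of its group.

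The comparison of treated with untreated AGS cells asked which members differ after cantharidin sodium in that line. Of 35 members tested, 8 rose and 2 fell, or 28.6%, where 20.8% of all genes passed (9.21% higher and 11.6% lower). The median log2 fold change was 0.21, against −0.01 over all genes. It was 0.20 when ITGB3 was set to the floor of 3 counts and LAMA4, which has no usable fold in AGS, was left out. The groups did not overlap for 20 of the 35 members, beside 52.4% of all tested genes.

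Of the subunit genes of laminin-binding integrins, ITGA6, ITGB1, ITGB4 and ITGA3 rose, and ITGA7 did not pass (log2 fold change 0.43, SE 0.18, adjusted p = 0.109). ITGA6 had 935, 1099.9 and 948 CPM in treated and 568, 625 and 557 CPM in untreated AGS libraries (log2 fold change 0.77, SE 0.13, adjusted p = 0.00233). ITGB1 had 993, 1235 and 1029 CPM in treated and 687, 764 and 661.5 CPM in untreated libraries (log2 fold change 0.62, SE 0.15, adjusted p = 0.0118). ITGB4 had 269.5, 336.5 and 268.5 CPM in treated and 176, 198 and 206 CPM in untreated libraries (log2 fold change 0.59, SE 0.17, adjusted p = 0.0243). ITGA3 had 227, 351 and 249 CPM in treated and 121, 153 and 158 CPM in untreated libraries (log2 fold change 0.94, SE 0.16, adjusted p = 0.00262). In each of these 4 genes all treated libraries were above all untreated ones, and treated replicate 2 was the highest. Per length, ITGA6 and ITGB1 stayed the leading alpha and beta genes in treated AGS cells, at 152 ± 14 and 181 ± 21.7 CPM per kb.

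Changes in AGS followed the GC content of transcripts, with a Spearman correlation of −0.32 over 15335 genes, and ITGA6 and ITGB1 have GC contents of 43.2% and 40.9%, against a median of 51.5% among the members. With the GC and length trend removed from every library the log2 fold change was 0.55 for ITGA6 and 0.38 for ITGB1. For the other genes that rose, the range over all alternatives is given with the GC content. It was 0.76 to 1.18 for ITGA1 (37.8%), 0.73 to 1.06 for ITGA3 (59.1%) and 0.45 to 0.68 for LAMB2 (59.9%). It was 0.48 to 0.78 for ITGB4 (62.9%), 0.77 to 1.09 for HSPG2 (63.5%) and 0.47 to 0.80 for LAMA5 (65.3%). The adjusted p of ITGB1 was 0.000546 to 0.061 over all alternatives, and its call ended without AGS untreated replicate 3 (0.0579) or AGS treated replicate 2 (0.0585), or with the trend removed and replicate number as a block (0.061), but not with the trend removed alone (0.0405). That of ITGB4 was 0.000919 to 0.108, and its call ended without any 1 of the 3 untreated AGS libraries or treated replicate 2 (0.0602 to 0.108), or with no filter on low counts (0.051).

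Among the matrix genes, LAMA5 had 114, 147 and 117 CPM in treated and 77.9, 84 and 87.4 CPM in untreated AGS libraries (log2 fold change 0.60, SE 0.13, adjusted p = 0.00666), and LAMB2 had 109, 129 and 109 CPM in treated and 76.7, 81.1 and 81 CPM in untreated libraries (log2 fold change 0.54, SE 0.11, adjusted p = 0.00501). HSPG2 had 223, 285 and 229 CPM in treated and 117, 144 and 136.5 CPM in untreated libraries (log2 fold change 0.89, SE 0.15, adjusted p = 0.00227). The collagen receptor gene ITGA1 had 6.84, 8.67 and 8.02 CPM in treated and 3.15, 4.45 and 3.75 CPM in untreated libraries (log2 fold change 1.06, SE 0.18, adjusted p = 0.00245). None of these 4 overlapped. Of the 2 that fell, LAMA1 had 0.304, 0.206 and 0.28 CPM in treated and 0.787, 0.571 and 0.744 CPM in untreated libraries (log2 fold change −1.42, SE 0.28, adjusted p = 0.00521). ITGB7, with at most 0.771 CPM and 42.1% of its exon bases shared with ZNF740 on the other strand, passed narrowly (adjusted p = 0.0497, and 0.00333 to 0.156 over all alternatives).

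Members that did not pass in AGS include the other collagen receptor of these cells. ITGA2 had 637, 957 and 664 CPM in treated and 313, 396 and 332 CPM in untreated libraries, without overlap but with a wide standard error (log2 fold change 1.12, SE 0.44, adjusted p = 0.0894). Without MKN1 untreated replicate 3, which enters through the shared spread, it passed (1.12, adjusted p = 0.00332). No collagen IV gene passed in AGS, with log2 fold changes from −0.27 for COL4A2 to 1.46 for COL4A1. LAMC1 (0.21), LAMB1 (0.29) and LAMB3 (−0.10), the laminin genes with the highest levels per length in AGS, did not pass, nor did LAMA3 (−0.09). Neither did the RGD receptor genes ITGA5 (−0.02), ITGAV (0.46), ITGB5 (−0.05), ITGB6 (−0.19) and ITGB8 (−0.42), nor AGRN (0.02), DAG1 (−0.38) and CD151 (−0.34). NID1 had 21.9, 27.2 and 29.4 CPM in treated and 37.8, 47.4 and 42.4 CPM in untreated libraries, without overlap (log2 fold change −0.70, SE 0.25, adjusted p = 0.0611).

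**Figure D3:**
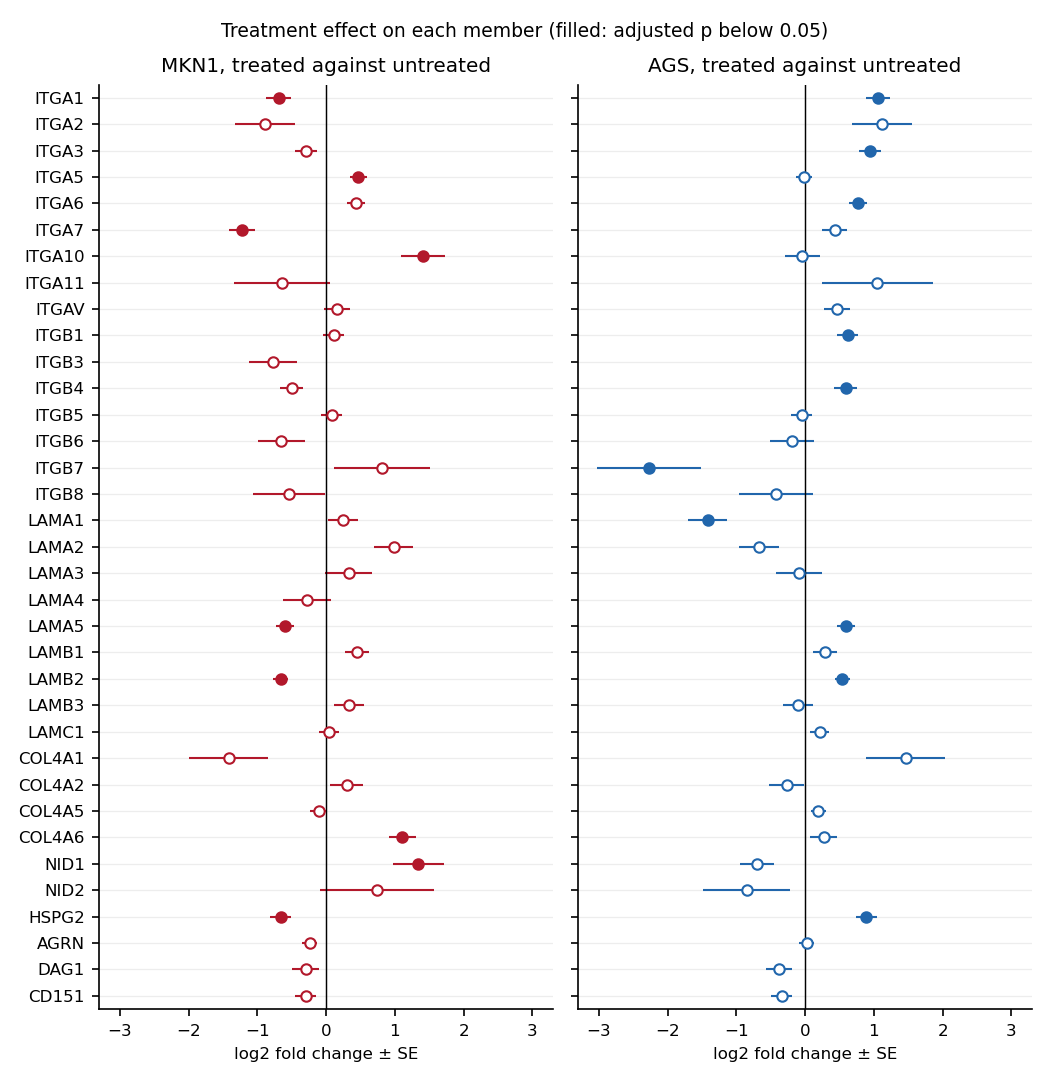
Log2 fold change of treated against untreated cells with its SE for the 35 members tested, in MKN1 (left) and in AGS (right), filled where the adjusted p was below 0.05. LAMA4 and ITGB3 are left out in AGS for their low counts. ITGA1, LAMA5, LAMB2 and HSPG2 lie left of 0 in MKN1 and right of 0 in AGS, filled in both panels.

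In MKN1 the same question was asked of treated and untreated cells. Of 35 members tested, 4 rose and 5 fell, or 25.7%, where 6.7% of all genes passed (2.8% higher and 3.9% lower). The median log2 fold change was −0.11, against 0.01 over all genes. The groups did not overlap for 15 of the 35 members, beside 21.4% of all tested genes. All 9 calls rest on the spread shared by the 4 groups: with MKN1 fitted alone, 0 of the 9 passed and 34 genes passed in all, with the same sign for 9 of 9 members and adjusted p of 0.074 to 0.199.

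The laminin and proteoglycan genes that rose in AGS fell in MKN1. LAMB2 had 109, 114 and 97.9 CPM in treated and 154, 172 and 181 CPM in untreated MKN1 libraries (log2 fold change −0.66, SE 0.11, adjusted p = 0.00584). LAMA5 had 239.9, 222 and 246 CPM in treated and 310.1, 362 and 401 CPM in untreated libraries (log2 fold change −0.60, SE 0.13, adjusted p = 0.017). HSPG2 had 75.3, 65.9 and 87 CPM in treated and 104, 114.5 and 143 CPM in untreated libraries (log2 fold change −0.66, SE 0.15, adjusted p = 0.0246). ITGA1 had 10.2, 9.87 and 8.69 CPM in treated and 16.2, 13 and 17.1 CPM in untreated libraries (log2 fold change −0.69, SE 0.18, adjusted p = 0.0392). All treated libraries were below all untreated ones for each of the 4 genes. The LAMA5 call ended without MKN1 untreated replicate 2 (0.068) or treated replicate 2 (0.0579), and the HSPG2 call without untreated replicate 2 (0.0709), treated replicate 1 (0.0648) or treated replicate 2 (0.0841). The ITGA1 call ended without any 1 of 9 libraries, all but AGS untreated replicates 1 and 2 and MKN1 untreated replicate 3 (adjusted p 0.0506 to 0.0951). That call also ended with library totals (0.0664), no filter on low counts (0.0599) or a replicate block, in a range of 0.00276 to 0.152 over all alternatives.

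Other receptors moved in both directions. ITGA7 had 2.43, 1.61 and 2.34 CPM in treated and 4.99, 4.74 and 5.12 CPM in untreated MKN1 libraries (log2 fold change −1.22, SE 0.19, adjusted p = 0.00519), with no overlap. ITGA5 had 331, 422 and 408 CPM in treated and 257, 291.5 and 291.5 CPM in untreated libraries (log2 fold change 0.47, SE 0.12, adjusted p = 0.0354), all higher. That call ended without any 1 of 8 libraries, namely each AGS untreated library, AGS treated replicate 1, MKN1 untreated replicates 1 and 2 and MKN1 treated replicates 2 and 3 (0.0568 to 0.119). It also ended with no filter on low counts. COL4A6, a collagen IV chain gene of restricted tissue use, had 4.76, 6.92 and 5.96 CPM in treated and 2.55, 2.73 and 2.91 CPM in untreated libraries (log2 fold change 1.11, SE 0.20, adjusted p = 0.0095), again without overlap.

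The remaining 2 increases concern very low levels. ITGA10 had 0.698, 0.918 and 1.13 CPM in treated and 0.374, 0.255 and 0.398 CPM in untreated MKN1 libraries (log2 fold change 1.41, SE 0.32, adjusted p = 0.0229). Its call ended without MKN1 untreated replicates 1 or 2 or treated replicates 2 or 3 (0.0539 to 0.11). NID1 had 1.43, 1.51 and 0.54 CPM in treated and 0.577, 0.474 and 0.306 CPM in untreated libraries, which overlap (log2 fold change 1.34, SE 0.37, adjusted p = 0.0494). It lost its call without any 1 of 11 libraries, all but MKN1 treated replicate 3 (0.0639 to 0.157). The NID1 call also ended with limma-voom, no filter on low counts, a replicate block or the GC and length trend removed.

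The genes of the laminin-binding integrins ITGA3, ITGA6, ITGB1 and ITGB4 did not pass in MKN1. ITGA3 had 1135, 1195 and 1292 CPM in treated and 1301, 1477.5 and 1646 CPM in untreated MKN1 libraries, without overlap (log2 fold change −0.29, SE 0.16, adjusted p = 0.312). ITGA6 had 464, 423 and 403 CPM in treated and 375, 313 and 262.5 CPM in untreated libraries, also without overlap (log2 fold change 0.44, SE 0.13, adjusted p = 0.0634). ITGB4 had 68.2, 64.2 and 70.2 CPM in treated and 72.5, 90.1 and 123 CPM in untreated libraries, without overlap (log2 fold change −0.50, SE 0.17, adjusted p = 0.0934). ITGB1 had 719, 573 and 563 CPM in treated and 681, 562 and 474.5 CPM in untreated libraries, which overlapped (log2 fold change 0.11, SE 0.15, adjusted p = 0.7). LAMA3, LAMB3 and LAMC1 had log2 fold changes of 0.33, 0.33 and 0.04, AGRN of −0.24, DAG1 of −0.30 and CD151 of −0.30, none of which passed. The other members without a call lay between −1.42 for COL4A1 and 0.98 for LAMA2.

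The difference of the treatment effects, MKN1 minus AGS, was tested in the same model. Of 35 members, 9 had a lower and 4 a higher effect in MKN1, or 37.1%, where 15.7% of all genes passed (8.38% higher and 7.3% lower). Both single-line comparisons called 4 members, ITGA1, LAMA5, LAMB2 and HSPG2, and all 4 fell in MKN1 and rose in AGS. Of the rest, 5 were called in MKN1 alone, 6 in AGS alone and 21 members, the untested ITGA4 among them, in neither. These counts were not made over all genes, so how often genes called in both lines go opposite ways is not known here.

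HSPG2 (chromosome 1, 21822245 to 21937297 in GRCh38) differed by −1.56 (SE 0.21, adjusted p = 0.000803), from −0.66 in MKN1 and 0.89 in AGS. ITGA1 (chromosome 5, 52787896 to 52959210) differed by −1.74 (SE 0.25, adjusted p = 0.00113), from −0.69 in MKN1 and 1.06 in AGS. LAMA5 (chromosome 20, 62307955 to 62367312) differed by −1.20 (SE 0.18, adjusted p = 0.00128), and LAMB2 (chromosome 3, 49121114 to 49133118) by −1.20 (SE 0.15, adjusted p = 0.000499). The call of the difference held for all 4 under every alternative run, with adjusted p of at most 0.0037 for HSPG2, 0.00471 for ITGA1, 0.0062 for LAMA5 and 0.00295 for LAMB2. Fits of a single line, in which the MKN1 calls ended, cannot give the difference and were not among these alternatives. Antisense or overlapping genes share 11.7% of the exon bases of HSPG2, 6.4% of those of ITGA1 and 2.5% of those of LAMA5. The library kit does not mark strand, so reads in these bases could not be assigned by strand. For ITGA1, genes on its own strand share 5.6% of the exon bases and genes on the other strand 1.2%. Strand would not separate reads in the former. Fewer cells of a kind and less RNA per cell cannot be told apart in such bulk samples.

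**Figure D4:**
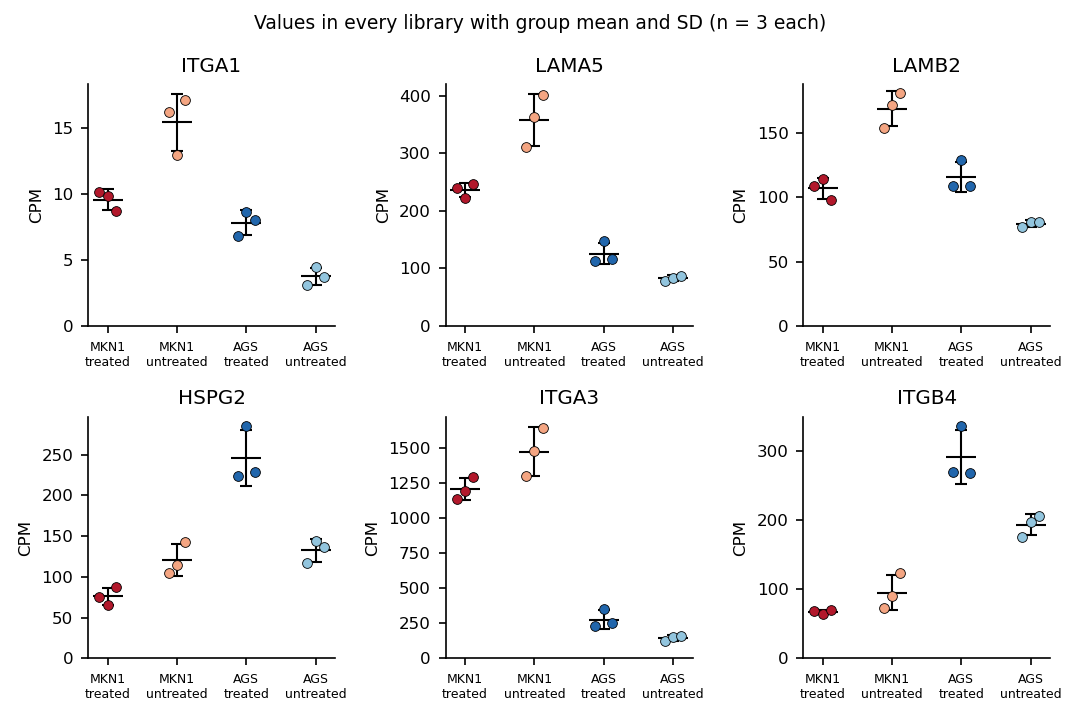
CPM in every library (points, linear axis from 0) of 6 members in treated and untreated MKN1 and AGS cells, with the group mean and SD (n = 3 each) as black lines. ITGA1, LAMA5, LAMB2 and HSPG2 are lower in treated than untreated MKN1 cells and higher in treated than untreated AGS cells, with no overlap within a line. ITGA3 and ITGB4 show the same order of values, and their calls are in AGS.

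The promoters of the 4 genes, from 250 bases before to 50 after the RefSeq start site in GRCh38.p14 and 5′ to 3′ on the gene's strand, are shown to let their sequences be compared. Capitals mark GC boxes (GGGCGG on either strand), the motif of SP1-like factors. No match to the AP-1 motif TGANTCA or the TEAD motif GGAATG was in these windows.

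ITGA1 (chr5:52787666-52787965, plus strand): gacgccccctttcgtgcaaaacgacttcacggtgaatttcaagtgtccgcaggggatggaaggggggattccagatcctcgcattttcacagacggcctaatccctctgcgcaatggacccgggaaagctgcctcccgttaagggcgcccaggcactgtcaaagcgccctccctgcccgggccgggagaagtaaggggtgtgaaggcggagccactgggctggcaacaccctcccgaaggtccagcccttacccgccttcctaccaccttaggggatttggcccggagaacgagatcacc
LAMA5 (chr20:62367263-62367562, minus strand): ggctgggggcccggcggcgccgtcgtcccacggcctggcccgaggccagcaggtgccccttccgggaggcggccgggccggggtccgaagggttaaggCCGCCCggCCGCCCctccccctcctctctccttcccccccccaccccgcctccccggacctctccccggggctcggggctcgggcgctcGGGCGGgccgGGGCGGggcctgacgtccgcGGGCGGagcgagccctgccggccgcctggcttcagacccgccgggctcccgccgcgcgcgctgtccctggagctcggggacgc
LAMB2 (chr3:49133001-49133300, minus strand): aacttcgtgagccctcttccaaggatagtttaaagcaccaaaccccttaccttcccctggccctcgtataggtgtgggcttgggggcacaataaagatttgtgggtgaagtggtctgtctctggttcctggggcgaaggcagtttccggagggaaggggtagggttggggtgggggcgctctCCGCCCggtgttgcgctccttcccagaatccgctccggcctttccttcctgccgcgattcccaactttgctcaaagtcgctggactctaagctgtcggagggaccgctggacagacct
HSPG2 (chr1:21937261-21937560, minus strand): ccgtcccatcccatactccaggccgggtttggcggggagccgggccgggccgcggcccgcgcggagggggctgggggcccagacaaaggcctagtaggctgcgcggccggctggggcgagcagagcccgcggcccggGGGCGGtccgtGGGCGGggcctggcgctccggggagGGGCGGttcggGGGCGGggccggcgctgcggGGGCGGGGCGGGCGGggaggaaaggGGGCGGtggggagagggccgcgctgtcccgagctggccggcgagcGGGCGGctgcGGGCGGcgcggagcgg

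The windows differed widely. HSPG2 held 10 GC boxes and a GC content of 83.3%, LAMA5 5 and 82.7%, LAMB2 1 and 58.7%, and ITGA1 0 and 61.7%. A GC box was found in 44.6% of 27305 promoters of this length, an AP-1 motif in 7.76% and a TEAD motif in 14%. The table held promoters of 29 members, of which 18 had a GC box, 4 a TEAD motif (ITGA5, ITGA10, ITGB1 and LAMA2) and 2 an AP-1 motif (ITGA5 and LAMA3).

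Calls of the difference for COL4A1 and for the collagen receptor gene ITGA2 ended when single libraries were left out, and under some other settings. COL4A1 differed by −2.89 (SE 0.81, adjusted p = 0.0307), with an effect of −1.42 in MKN1 and 1.46 in AGS, neither of which passed. Its difference was −2.05 without AGS treated replicate 2 (adjusted p = 0.088) and −2.32 without MKN1 untreated replicate 3 (0.0505), the libraries named above as high. The call also ended without AGS untreated replicates 1 or 2 or MKN1 treated replicates 1 or 3, or with no filter on low counts. Adjusted p was 0.00711 to 0.088 over all alternatives. ITGA2 differed by −2.01 (SE 0.62, adjusted p = 0.045), from −0.89 in MKN1, where treated libraries had 106, 92.1 and 62.4 CPM and untreated ones 260.0, 178.5 and 43.8 CPM, and 1.12 in AGS. That call ended without any 1 of 11 libraries, all but MKN1 untreated replicate 3 (0.0513 to 0.115). It also ended with limma-voom or with no filter on low counts.

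Laminin receptor genes followed the same direction. ITGA3 differed by −1.23 (SE 0.23, adjusted p = 0.00431), ITGA7 by −1.64 (SE 0.26, adjusted p = 0.00179) and ITGB4 by −1.09 (SE 0.23, adjusted p = 0.00839). For ITGA6 (−0.33, SE 0.18) and ITGB1 (−0.51, SE 0.21) no difference was called, with adjusted p of 0.249 and 0.114. In the other direction stood NID1 at 2.04 (SE 0.45, adjusted p = 0.0091), LAMA1 at 1.67 (SE 0.36, adjusted p = 0.00824), LAMA2 at 1.64 (SE 0.40, adjusted p = 0.0163) and ITGA10 at 1.45 (SE 0.41, adjusted p = 0.0321). LAMA2, the alpha chain gene of muscle laminin, had 2.37, 3.84 and 3.57 CPM in treated and 1.73, 1.86 and 1.38 CPM in untreated MKN1 libraries, and 0.881, 0.903 and 1.48 CPM in treated and 2.15, 1.54 and 1.49 CPM in untreated AGS libraries. Levels of these 4 genes were at most 6.48 CPM in any library, except for NID1 in AGS. The ITGA10 call ended without any 1 of 8 libraries (0.054 to 0.0858), all but AGS untreated replicate 2, MKN1 untreated replicate 3 and MKN1 treated replicates 1 and 2. It also ended with no filter on low counts.

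Treated MKN1 and treated AGS cells were compared after the values were seen. Of 35 members, 16 were higher and 12 lower in MKN1, or 80.0%, where 68.1% of all genes passed (36.8% higher and 31.4% lower). Libraries did not overlap for 30 of the 35 members, beside 74% of all tested genes. Called the same way as in untreated cells were 23 members, and 0 were called in opposite ways. This was not counted over all genes, of which 66.3% passed between untreated and 68.1% between treated lines. LAMB2 had 109, 114 and 97.9 CPM in treated MKN1 and 109, 129 and 109 CPM in treated AGS libraries, which overlapped (log2 fold change −0.11, SE 0.11, adjusted p = 0.365), whereas in untreated cells it was called 1.09 higher in MKN1. ITGA1 had 10.2, 9.87 and 8.69 CPM in treated MKN1 and 6.84, 8.67 and 8.02 CPM in treated AGS libraries, which did not overlap by a narrow margin (log2 fold change 0.29, SE 0.18, adjusted p = 0.166), against 2.03 higher in untreated MKN1 cells. HSPG2 had 75.3, 65.9 and 87 CPM in treated MKN1 and 223, 285 and 229 CPM in treated AGS libraries, without overlap (log2 fold change −1.69, SE 0.15, adjusted p = 5.48e-07). ITGA2 was 8.68-fold lower in treated MKN1 than in treated AGS cells (log2 fold change −3.12, SE 0.47, adjusted p = 5.87e-05). ITGA3 remained higher in MKN1 by 2.13 (SE 0.17, adjusted p = 1.4e-07).

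Genes that work with the members were counted in lists. Of 34 tested genes of integrin adaptors and focal adhesion, 0 rose and 1 fell in MKN1, or 2.94%, and 2 rose and 8 fell in AGS, or 29.4%. Over all genes 6.7% passed in MKN1 and 20.8% in AGS, the shares beside which each list is given. No list was tested against other genes. TNS4, a tensin gene whose product binds integrin beta tails, was the gene that fell in MKN1, with a mean of 338 ± 71.7 CPM in treated and 629 ± 227 CPM in untreated cells (log2 fold change −0.89, SE 0.23, adjusted p = 0.0395). It averaged 1241 ± 123 CPM in treated and 709 ± 29.5 CPM in untreated AGS cells, and the effects differed by −1.70 (SE 0.33, adjusted p = 0.00477). In AGS the scaffold gene BCAR1 fell by 0.73 (SE 0.14, adjusted p = 0.00364), KANK2 fell by 0.57 (SE 0.11, adjusted p = 0.00375) and LPP rose by 0.50 (SE 0.10, adjusted p = 0.00501). FERMT2, the kindlin 2 gene whose product activates integrins, averaged 98.1 ± 22 CPM in untreated MKN1 and 0.167 ± 0.122 CPM in untreated AGS cells, and 10 of the 34 were higher and 13 lower in untreated MKN1, or 67.6%, beside 66.3% of all genes.

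Of 7 other hemidesmosome genes, 2 rose and 0 fell in AGS, or 28.6% (20.8% of all genes). ERBIN rose by 0.50 (SE 0.14, adjusted p = 0.0255), and the other was KRT5, with 10 counts over the treated and 0 over the untreated AGS libraries. In untreated cells 5 of the 7 were higher and 1 lower in MKN1, or 85.7%, beside 66.3% of all genes. The keratin genes KRT5 and KRT14, which are also on the squamous marker list, averaged 429 ± 43.9 CPM for KRT5 and 559.8 ± 269.8 CPM for KRT14 in untreated MKN1 cells, and 0 CPM for KRT5 and 0.303 CPM for KRT14 in untreated AGS cells. COL17A1, a transmembrane collagen of hemidesmosomes, averaged 51.9 ± 6.69 CPM in untreated MKN1 and 5.18 ± 0.575 CPM in untreated AGS cells.

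Of 26 integrin ligands outside the basement membrane, 1 rose and 1 fell in MKN1, or 7.69% (6.7% of all genes), and 5 rose and 5 fell in AGS, or 38.5% (20.8% of all genes). CCN1, a matricellular ligand gene, averaged 312 ± 29.4 CPM in treated and 777 ± 217 CPM in untreated MKN1 cells (log2 fold change −1.32, SE 0.22, adjusted p = 0.00588), and its effect differed between lines by −1.83 (SE 0.31, adjusted p = 0.0023). CCN2, of the same family, averaged 116 ± 60.9 CPM in treated and 29.9 ± 13.6 CPM in untreated AGS cells (log2 fold change 1.95, SE 0.44, adjusted p = 0.00888), and its effect differed by −2.98 (SE 0.61, adjusted p = 0.00623). FBN2, a fibrillin gene, was the one that rose in MKN1, by 1.34 (SE 0.28, adjusted p = 0.0163). In untreated cells 19 of the 26 were higher and 4 lower in MKN1, or 88.5%, beside 66.3% of all genes, among them COL5A1 at 1366 ± 169 CPM in untreated MKN1 and 0.799 ± 0.116 CPM in untreated AGS cells.

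Of 33 other genes of basement membranes and their assembly, 0 rose and 1 fell in MKN1, or 3.03% (6.7% of all genes), and 4 rose and 8 fell in AGS, or 36.4% (20.8% of all genes). FBLN1, the fibulin 1 gene, was the one that fell in MKN1 (−0.68, SE 0.17, adjusted p = 0.0313). NTN4, a laminin-related netrin gene, rose in AGS by 0.90 (SE 0.20, adjusted p = 0.00844), while SERPINH1, the collagen chaperone gene, fell by 0.57 (SE 0.14, adjusted p = 0.0139). COL7A1, the anchoring fibril collagen gene, averaged 317 ± 42.0 CPM in untreated MKN1 and 3.73 ± 0.165 CPM in untreated AGS cells. In treated cells it averaged 328.7 ± 19.1 CPM in MKN1 and 1.01 ± 0.226 CPM in AGS. Its treatment effect was higher in MKN1 by 1.93 (SE 0.21, adjusted p = 0.000239). In untreated cells 24 of the 33 were higher and 4 lower in MKN1, or 84.8%, beside 66.3% of all genes.

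Of 20 other laminin and dystroglycan receptor and glycosylation genes, 1 rose and 1 fell in MKN1, or 10.0% (6.7% of all genes), and 4 rose and 3 fell in AGS, or 35.0% (20.8% of all genes). BCAM, which encodes a receptor of the LAMA5 chain, averaged 34.5 ± 6.0 CPM in treated and 71.0 ± 7.78 CPM in untreated MKN1 cells (log2 fold change −1.04, SE 0.14, adjusted p = 0.00226), and the difference between lines was −0.84 (SE 0.19, adjusted p = 0.0118). Of 18 other tetraspanins, 0 rose and 2 fell in MKN1, or 11.1%, and 1 rose and 3 fell in AGS, or 22.2%, beside the same shares of all genes. TSPAN15 averaged 5.85 ± 0.497 CPM in treated and 12.9 ± 0.341 CPM in untreated MKN1 cells (log2 fold change −1.15, SE 0.11, adjusted p = 0.000351). Of 6 other integrin subunit genes, 0 passed in MKN1 (6.7% of all genes), and 0 rose and 2 fell in AGS, or 33.3% (20.8% of all genes). The 2 that fell averaged below 5 CPM in treated and untreated AGS cells. In untreated cells ITGB2, the leukocyte beta subunit gene, averaged 35.4 ± 9.49 CPM in MKN1 and 0.755 ± 0.234 CPM in AGS.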

How the data were processed

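RNA from 12 libraries, 3 for each of 4 groups, was sequenced from TRIzol extracts prepared with an NEBNext Ultra kit, which does not mark strand, per the labels' protocols. Reads were aligned with HISAT2 2.0.4 to GRCh38, per the submitters' processing notes. The authors deposited raw read counts per gene; the counting tool, annotation and use of strand were not given in the sources used here. Total counts were 28604966 to 51604215 per library, and counting intervals and the floor of 3 counts cover counting error only.

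The deposited counts were tested with edgeR 4.0.16 (R 4.3.3): filterByExpr, TMM factors, 1 quasi-likelihood fit over the 4 group means with 8 residual degrees of freedom, and Benjamini-Hochberg adjustment over 20280 genes at 0.05. Replicate numbers were not used as a block. CPM values were computed from TMM-scaled totals, and exon lengths, GC content and positions come from GENCODE 29. Self-tests used simulated counts. DESeq2 1.42.0, limma-voom 3.58.1, other factors and filters, GC and length trends, a replicate block, single-line fits and leaving out each library were alternatives. Values in every library are given for ITGB1, ITGA6, ITGB4 and for members past 0.05 with a mean of at least 5 CPM in a compared group, up to 8 per direction, and for others singled out after their values were seen. For each pathway list, up to 3 genes per comparison with the smallest adjusted p are named. The members and lists were chosen with earlier results of these data known. The result of a further gene of the pathway lists is not reported here.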

Additional observations from a re-analysis of the deposited data

Results flagged for a closer look

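For 13 members the effect of treatment differed between MKN1 and AGS by the test of the difference itself (MKN1 minus AGS, log2 scale). The difference was −1.74 for ITGA1, −2.01 for ITGA2, −1.23 for ITGA3, −1.64 for ITGA7, −1.09 for ITGB4, −1.20 for LAMA5, −1.20 for LAMB2, −2.89 for COL4A1 and −1.56 for HSPG2. It was 1.45 for ITGA10, 1.67 for LAMA1, 1.64 for LAMA2 and 2.04 for NID1.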

How the results depend on the processing

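Of the member values over all alternatives, 3692 kept their direction and side of the threshold, 131 lost a call, 80 gained one and 50 changed sign. Calls held under every alternative run for 25 of 29 members between untreated lines, 26 of 28 between treated lines, 7 of 10 in AGS, 0 of 9 in MKN1 and 10 of 13 for the difference. The difference had no fit of the compared groups alone, so its share is not on the same footing. That fit was the only alternative that ended the MKN1 calls of ITGA7, LAMB2 and COL4A6. The causes of these changes were not tested.

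Member counts moved as follows. In AGS the 8 that rose became 15 with AGS alone, and the 2 that fell became 5 with AGS alone and 1 under library totals, no filter, a filter of 5 CPM, or a replicate block after removal of the GC and length trend. In MKN1 the 4 that rose became 2 with no filter and 0 with MKN1 alone, and the 5 that fell became 0 with MKN1 alone. For the difference the 4 higher became 2 under the 5 CPM filter. Over all genes, higher calls became 4717 between untreated and 4888 between treated lines under that filter, AGS alone gave 4040 higher and 4329 lower, and MKN1 gave 1009 and 1415 with DESeq2, 287 and 522 with no filter, and 5 and 29 alone.

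Leaving out 1 library each time gave 6 to 10 members higher and 1 to 3 lower in AGS, 1 to 4 and 2 to 7 in MKN1, and 3 to 7 and 7 to 9 for the difference. Over all genes it gave 859 to 2482 higher and 1192 to 3051 lower in AGS, 104 to 1569 and 232 to 1591 in MKN1, and 1093 to 2546 and 1005 to 2100 for the difference. Uncalled members whose sign turned are given with their range over libraries left out. In untreated MKN1 against untreated AGS, these were LAMA2 (−0.17 to 0.12). In treated against untreated AGS, these were ITGA5 (−0.08 to 0.07), ITGA10 (−0.20 to 0.08), ITGB5 (−0.16 to 0.06), LAMA4 (−2.46 to 3.11) and AGRN (−0.05 to 0.06). In treated against untreated MKN1, these were ITGB1 (−0.01 to 0.25), ITGB5 (−0.03 to 0.19), LAMA3 (−0.12 to 0.62) and LAMC1 (−0.07 to 0.22). In the difference MKN1 minus AGS, these were ITGB6 (−0.75 to 0.06), ITGB8 (−0.60 to 0.34), LAMA3 (−0.02 to 0.72), LAMA4 (−3.39 to 2.18), LAMB1 (−0.02 to 0.43), LAMC1 (−0.28 to 0.01), DAG1 (−0.07 to 0.30) and CD151 (−0.12 to 0.15).

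Other sign changes also concerned uncalled members. LAMA2 was 0.01 between untreated lines with upper-quartile factors. In AGS, ITGA5 was 0.00 under the 5 CPM filter, and ITGA5 and LAMB3 were 0.03 and 0.07 after removal of the GC and length trend and 0.02 and 0.06 with the replicate block as well. In MKN1 LAMC1 was −0.01 in both. The difference for ITGB8 was 0.20 with limma-voom, 0.01 with the replicate block, 0.06 with the trend removed and 0.20 with both, and that for CD151 was −0.08 with the trend removed and −0.09 with both. With the trend removed, the difference between treated lines was −0.40 for ITGB1, against −0.81.

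Same-numbered treated and untreated libraries had correlated deviations of −0.035 to 0.014 in AGS and −0.038 to 0.163 in MKN1, the last for replicate 3. Since not every pair was above 0.1, the numbers were not taken as a pairing. With the replicate block the MKN1 calls of ITGA1 (adjusted p = 0.0558) and NID1 (0.0637) ended, and with the trend removed as well those of ITGB1 (0.061) and ITGB7 (0.0553) in AGS, NID1 in MKN1 (0.0679) and ITGA11 between untreated lines (0.0643). Depth and 3 libraries per group limit genes of few counts.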
